A study of Saccharomyces cerevisiae with 8 samples.

Results

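In 2 yeast hybrids, 97 of 6528 array features lay on one side of the parental RNA mix on every one of the 8 arrays. They make up 1.49% of the features and were chosen by the log2 ratios, hybrid over mix, in the authors' deposited table. The 2 spots of each feature were averaged, and a feature was kept when its value was above 0 on all 8 arrays or below 0 on all 8. This gave 48 features above the mix, 0.735% of all features, and 49 below it, 0.751%. The ratios therefore chose the members, and they are given below as a description, with no test against 0.

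Hybrid Sce2965 was compared with a mix of RNA from sce2713 and sce2902, and hybrid Sce2950 with a mix from sce2709 and sce2898. Hybrids and parents are Saccharomyces cerevisiae, budding yeast, and the parental lines had adapted to different environments. Each hybrid had 4 spotted 2-colour arrays, 2 with the hybrid in the dye Cy5 and 2 with it in Cy3. Cultures came from a colony and were harvested in early growth in 0.5xYPD, a diluted rich medium. The labels give neither the environment, genotype or ploidy of each line nor the shares of the lines in a mix. In the scanner headers the image name of the mix channel carries 1 parental line, sce2713 or sce2709, on the 4 early arrays, and no line on the 4 later ones. The labels call the arrays of a comparison independent replicates, but link none to a particular culture. The p-values below measure the spread between arrays, part of which may be technical.

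A hybrid carries a genome from each parent. Where the alleles of the parents act additively, the level of a transcript is expected near the level in a balanced blend of the parents' RNA. Departures from that blend are what studies of hybrid expression call non-additive expression. A feature that departs the same way in separate hybrids would be a departure that separate pairs of parents share. A ratio on such an array cannot tell a change in the hybrid from an uneven blend, and in bulk RNA it cannot tell fewer expressing cells from less RNA per cell.

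The spots carry no gene names in the files, so the features are known by spot number only. No gene name, chromosome position or sequence is given for any of them, and the 2 largest departures in each direction are identified by their spots. Across arrays, the median spot intensity was 159.4 to 454.8 in the hybrid channel and 115.5 to 312.7 in the mix channel. The arrays came on 3 slide series, 2 early ones that held 1 hybrid each and a later one that held both hybrids. On the later slides, ratios over all features correlated at 0.627 and 0.588 between arrays of different hybrids with the same dye orientation. Between the orientations of one hybrid they correlated at -0.402 in Sce2965 and -0.575 in Sce2950. On the later slides, dye orientation thus moved with the ratios of features in general. Because each hybrid had both orientations on both early and later slides, a member has its sign in each of these combinations.

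The features with 8 agreeing signs were the ends of a distribution that was highest in its middle. Features above the mix on 4 of 8 arrays numbered 1978, and 213 were above it on 7 arrays and 190 on 1 array. A further 43 features had 4 ratios above 0 in Sce2965 and 4 below 0 in Sce2950, and 43 had the reverse. Departures in opposite directions thus numbered 86, against the 97 in the same direction. Of the features above the mix on all 4 arrays of a hybrid, those above it in both made up 11.3% of the 425 in Sce2965 and 12.2% of the 395 in Sce2950. Of those below it on all 4 arrays, the shared ones made up 11.3% of 432 in Sce2965 and 14.4% of 340 in Sce2950. Over all features, 6.51% were above the mix throughout Sce2965 and 6.05% throughout Sce2950, and 6.62% and 5.21% were below it, so each shared part exceeded the other hybrid's share over all features. The parts with opposite signs did so too, at 10.1% of the 425 and 9.95% of the 432 in Sce2965, and 10.9% of the 395 and 12.6% of the 340 in Sce2950. These shares were not tested.

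**Figure D1:**
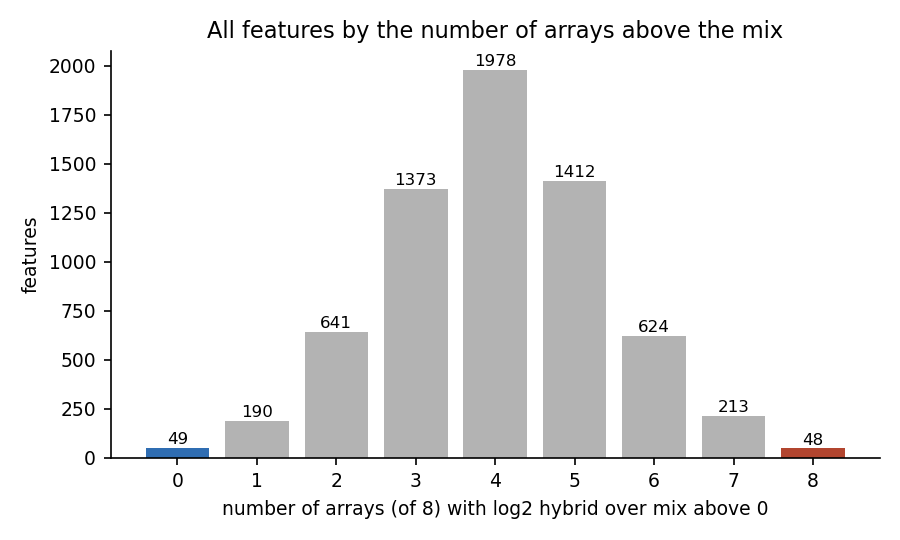
Number of features (vertical axis) by the number of the 8 arrays on which the averaged log2 ratio of hybrid over mix was above 0 (horizontal axis). The 48 features above the mix on all 8 arrays are the red bar and the 49 below it on all 8 the blue bar; the most common count, with 1978 features, was above it on 4.

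At the edge of the rule the limiting values were close to 0. The member above the mix with the smallest limiting value had 0.000698 on replicate 2 of Sce2965, and the nearest feature outside had -0.000456 on replicate 3 of Sce2950. That member was the brightest of the 48 and saturated in 16 of its 32 spot readings, counted over spots, arrays and channels, and the next member inside had 0.00103 on replicate 1 of Sce2950. Below the mix, the nearest member had -0.000851 on replicate 1 of Sce2965, and the nearest feature outside had 0.000708 on replicate 1 of Sce2950. Of the 213 features that 1 array kept out on the upper side, that array was replicate 2 of Sce2965 for 37 and replicate 3 of Sce2950 for 36, the most, and replicate 1 of Sce2950 for 14, the fewest. Of the 190 on the lower side, it was replicate 3 of Sce2950 for 38, the most, and replicate 4 of Sce2965 for 8, the fewest.

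Most members departed by little. Over the mean of both hybrids, the 48 features above the mix lay between 0.03 and 1.00 on the log2 scale, with a median of 0.22, or 1.17-fold. The lowest mean was that of the saturated member, and the next lowest was 0.06. The 49 below it lay between -0.64 and -0.07, with a median of -0.20, or 1.15-fold below. The median size over all features was 0.06. In 3 members above and 4 below, the mean departure was at least 0.5 in size, and in 20 above and 25 below it was under 0.2. Over all 6528 features, that mean was at least 0.5 in size in 9 and under 0.2 in 6167. The smallest of a member's 8 values was under 0.05 in size for 34 of the 48 and 34 of the 49. It was at least 0.2 in 2 members above the mix and in 5 below it.

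In hybrid Sce2965, the median ratio of the members above the mix was 0.176, 0.104, 0.218 and 0.241 on replicates 1 to 4. In hybrid Sce2950, it was 0.165, 0.242, 0.173 and 0.181. For the members below the mix, the medians were -0.166, -0.252, -0.198 and -0.215 on replicates 1 to 4 of Sce2965. They were -0.180, -0.250, -0.154 and -0.213 on those of Sce2950. Replicate 2 of Sce2965 was nearest to 0 among the arrays for the upper group and farthest for the lower group. It also held the smallest of the 8 values more often than any other array, in 14 of the 48 members above and 12 of the 49 below. Over all features the median size of a ratio was 0.112 on that array, the lowest of the 8, and 0.223 on replicate 2 of Sce2950, the highest.

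**Figure D2:**
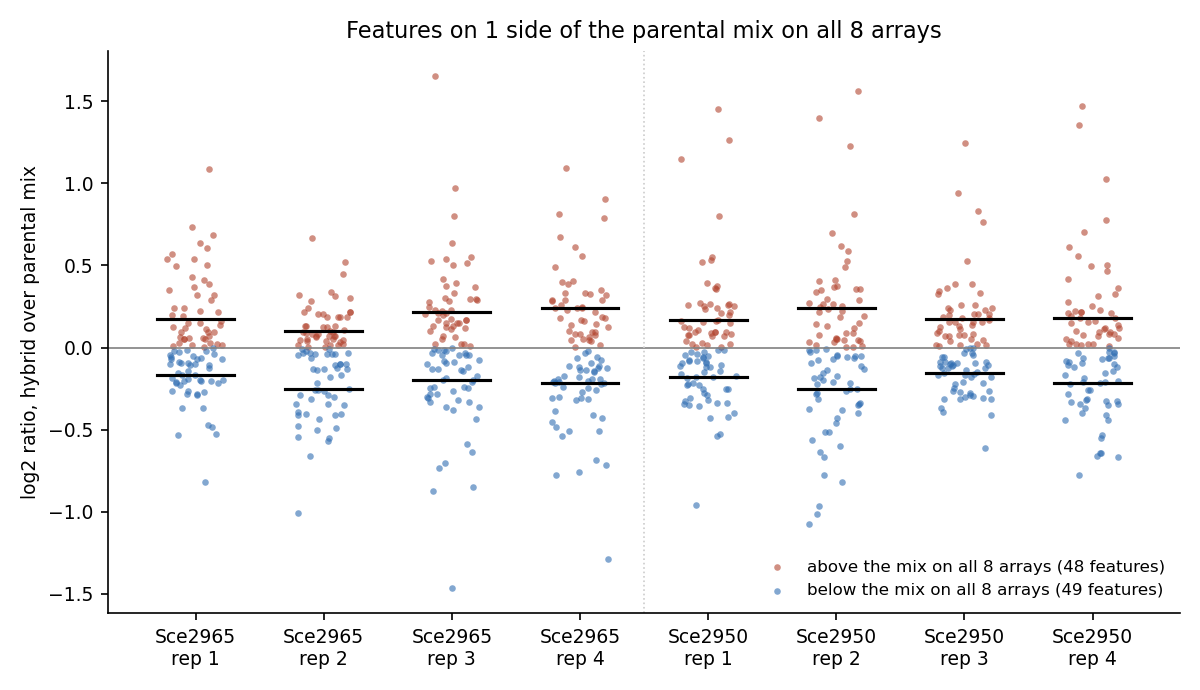
Log2 ratio of hybrid over parental mix (vertical axis) of each of the 48 features above the mix (red) and the 49 below it (blue) on each of the 8 arrays (horizontal axis); black lines are medians, between 0.104 and 0.242 above and between -0.252 and -0.154 below. The gap at 0 follows from the rule, and 6 features above the mix and 4 below it pass 1 in size on at least 1 array, on up to 5 arrays above and 2 below.

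Among the members above the mix, the feature at spots 10991 and 10992 departed most. Its log2 ratios were 0.57, 0.45, 0.97 and 0.79 on replicates 1 to 4 of Sce2965, against 1.27, 1.56, 0.94 and 1.47 on those of Sce2950. The hybrids overlapped, since the highest Sce2965 array exceeded the lowest Sce2950 array. The means were 0.69 ± 0.232 in Sce2965 and 1.31 ± 0.277 in Sce2950 (SD, n = 4 each), and their average was 2.00-fold above the mix. All 16 values of its spots had the same sign. Its raw intensities, before any scaling between channels, were 419, 764, 828 and 917 for the hybrid and 368, 391, 616 and 489 for the mix on the arrays of Sce2965. On those of Sce2950 they were 1982, 2947, 1064 and 1698 for the hybrid and 814, 1034, 942 and 469 for the mix. It was the brighter of the 2 features named above the mix, at a mean log2 intensity of 9.68, against 7.52 for the other one.

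The feature at spots 4037 and 4038 came second. Its log2 ratios were 0.09, 0.08, 1.65 and 1.10 on replicates 1 to 4 of Sce2965, against 0.80, 1.40, 1.25 and 1.36 on those of Sce2950. In Sce2965 the 2 later slides stood more than 1 above the 2 early ones, while in Sce2950 all 4 arrays were well above 0. The means were 0.73 ± 0.776 in Sce2965 and 1.20 ± 0.273 in Sce2950 (SD, n = 4 each), so the spread in Sce2965 was wider than its mean. On replicate 1 of Sce2965 one of its spots was at -0.01, and 15 of its 16 spot values were above 0. It was dim, with a raw mix intensity of 10.1 on replicate 2 of Sce2950. The scanner recorded a local background of 0 for every spot on both early arrays of Sce2950, so no local background could be taken off there. The early arrays of Sce2965, which gave the low pair, shared this in part. On replicate 1 the background was 0 for 100% of spots in the hybrid channel and 77.8% in the mix channel. On replicate 2 it was 0 for 32.2% in the hybrid channel and 100% in the mix channel. Whether low signal or missing background bears on the ratios of this feature was not tested.

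Below the mix, the feature at spots 3705 and 3706 departed most on average. Its log2 ratios were -0.26, -0.35, -1.46 and -0.77 on replicates 1 to 4 of Sce2965, against -0.22, -1.08, -0.22 and -0.78 on those of Sce2950. The arrays of each hybrid spread widely and the hybrids overlapped. In Sce2965 the 2 later arrays were both lower than the 2 early ones. In Sce2950 the 2 arrays with the hybrid in Cy3, replicates 2 and 4, were lower than the 2 in Cy5. The order by dye was reversed in Sce2965, where the Cy5 array was lower on the early and on the later slides. Whether the slides bear on the ratios of this feature was not tested. The means were -0.71 ± 0.548 in Sce2965 and -0.57 ± 0.425 in Sce2950 (SD, n = 4 each), an average of 1.56-fold below the mix. All 16 of its spot values were below 0.

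The feature at spots 3501 and 3502 had log2 ratios of -0.53, -0.26, -0.73 and -1.29 on replicates 1 to 4 of Sce2965, against -0.40, -0.64, -0.26 and -0.64 on those of Sce2950. The hybrids again overlapped, with the lowest value on replicate 4 of Sce2965. Its means were -0.70 ± 0.437 in Sce2965 and -0.48 ± 0.186 in Sce2950 (SD, n = 4 each), an average of 1.51-fold below the mix. Its 16 spot values were all below 0. Both features named below the mix were brighter than the median feature, at mean log2 intensities of 8.64 for spots 3705 and 3706 and 8.33 for this one, against 7.86.

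**Figure D3:**
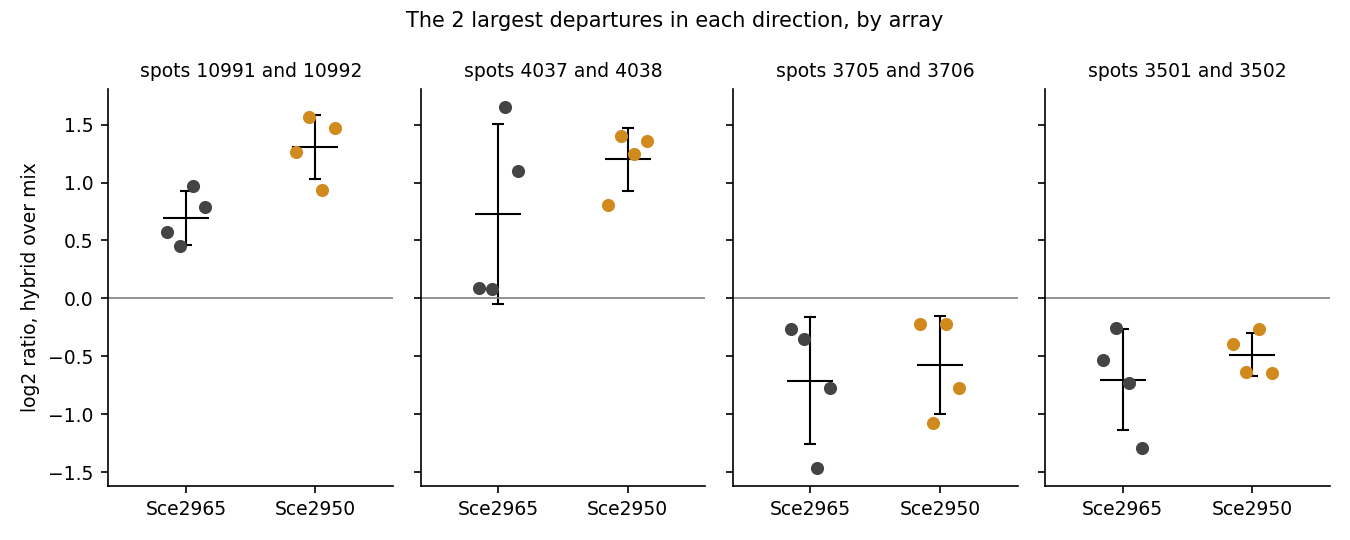
Log2 ratio of hybrid over mix (vertical axis) on each array for the 2 largest departures above the mix and the 2 largest below it, with the arrays of Sce2965 left of those of Sce2950; bars are mean and SD over 4 arrays. The points of the hybrids overlap in each panel, and at spots 4037 and 4038 the arrays of Sce2965 fall into a low pair at 0.09 and 0.08 and a high pair at 1.65 and 1.10.

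Whether a member departed by a different amount in each hybrid was tested with limma on ratios from the scanner files, over all features and with a dye term. The sign rule did not use this difference, although the same arrays enter it. It does limit the difference in the deposited ratios, where a member's hybrids lie on the same side of 0. In the recomputed ratios tested here, 46 of the 48 and 46 of the 49 had a mean of their sign in both hybrids. A tested difference can thus part from the gap between a member's means in the deposited ratios. Past an adjusted p of 0.05 there were 0 of the 48 members above the mix and 0 of the 49 below it, where 26 of all 6526 features tested passed in limma (0.398%), 5 of them higher in Sce2965 (0.0766%) and 21 lower (0.322%). Without adjustment, limma gave a p under 0.05 for 4 of the 48 and 2 of the 49, and for 221 of all features (3.39%). The lowest limma adjusted p was 0.297 among the members above the mix and 1.00 among those below it.

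The differences of Sce2965 minus Sce2950 lay between -0.55 and 0.70 among the members above the mix, with a median of 0.02. Among those below it they lay between -0.57 and 0.43, with a median of -0.07. The median SE was 0.185 above the mix and 0.183 below it, and 0.203 over all features. For 45 of the 48 and 46 of the 49 the 95% interval of the difference lay within 1 log2 unit on either side of 0. Smaller differences between the hybrids were thus not resolved for the typical member, whose interval reached 0.409 to either side above the mix and 0.405 below it. Over all features the median difference was 0.003 and the median interval reached 0.450 to either side. How many of all features had an interval within 1 log2 unit was not counted, so the counts above are not particular to members.

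For the named features, the difference was -0.55 at spots 10991 and 10992, with a 95% interval from -0.97 to -0.13 (limma adjusted p = 1.00). These differences come from globally normalized ratios and so are not the gaps between the table's means given above, and the intervals are not adjusted for the number of features. At spots 4037 and 4038 it was -0.25, from -0.85 to 0.35, and at spots 3705 and 3706 it was -0.25, from -0.78 to 0.29 (limma adjusted p = 1.00 each). At spots 3501 and 3502 it was -0.33, from -0.68 to 0.03 (limma adjusted p = 1.00). On the later slides alone, which leave 2 arrays per hybrid, this last difference was -0.51 and passed the threshold (limma adjusted p = 0.0371).

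By the mean ratios of the value table, the departure was larger in Sce2965 for 22 of the 48 members above the mix and in Sce2950 for the other 26. Below the mix it was larger in Sce2965 for 23 of the 49 and in Sce2950 for the other 26. It was over 2 times as large in Sce2965 for 9 members above and 9 below, and over 2 times as large in Sce2950 for 9 above and 3 below. Neither hybrid held the larger departure for nearly all members. Across the 48 features above the mix the hybrids' mean ratios had a Pearson correlation of 0.524, which was 0.140 without the 2 largest, and a Spearman correlation of 0.329. Across the 49 below it the Pearson correlation was 0.593, or 0.475 without the 2 largest, and the Spearman correlation was 0.367. Features on the same arrays are not independent, and the sign rule shapes these correlations.

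A departure of at least 0.5 in size in both hybrids was shown by 3 members above the mix and 3 below it. It was reached in Sce2965 alone by 4 members above and 2 below, and in Sce2950 alone by 3 above and 1 below. Over all 6528 features, the mean departure had that size for 74 in Sce2965 and 69 in Sce2950. Most departures of that size in either hybrid thus lay outside the members. All arrays of Sce2965 lay above all of Sce2950 for 1 member above the mix and 0 below it, where 1.73% of all features had that order. All arrays of Sce2965 lay below all of Sce2950 for 2 members above the mix and 2 below it, where 2.01% of all features had that order.

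**Figure D4:**
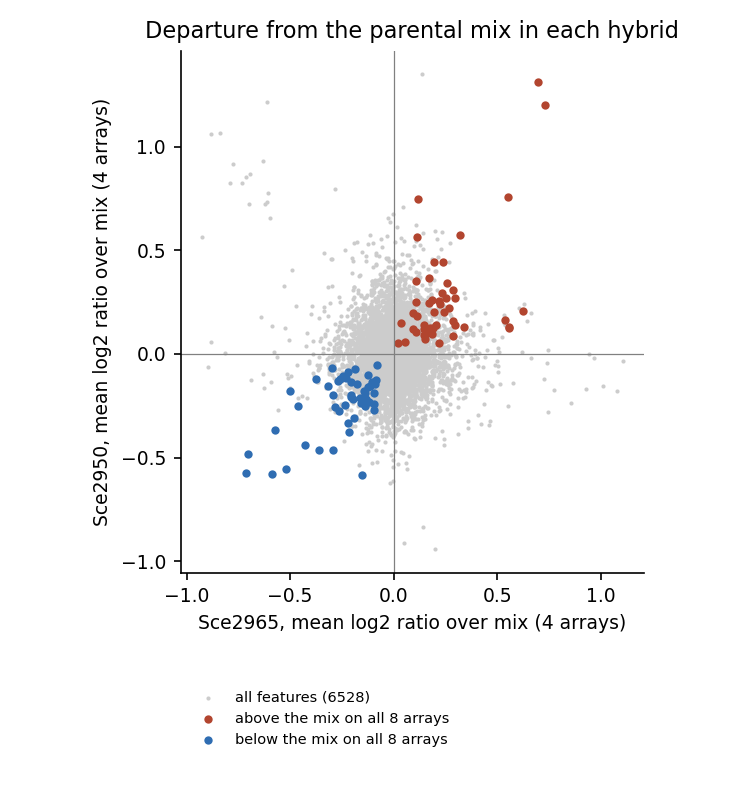
Mean log2 ratio over mix of each feature in Sce2965 (horizontal axis) and Sce2950 (vertical axis), each over 4 arrays, for all 6528 features (grey) and the members above (red) and below (blue) the mix. The members fill the quadrants of equal sign by the rule, mostly near the origin, with 3 above and 3 below at 0.5 or more in size in both hybrids.

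Dye orientation and slides were compared within each hybrid. Above the mix, the median member stood at 0.167 with Sce2965 in Cy5 and 0.212 with it in Cy3, and at 0.173 with Sce2950 in Cy5 and 0.212 with it in Cy3. Below the mix the values were -0.207 in Cy5 and -0.171 in Cy3 for Sce2965, and -0.190 in Cy5 and -0.209 in Cy3 for Sce2950. The medians of the orientations differed by less than 0.05, and the rule itself required the sign in both. The departure was larger in Cy3 for 29 of the 48 members above the mix, and in Cy5 for the other 19, in Sce2965 and likewise in Sce2950. Below the mix it was larger in Cy5 for 25 and in Cy3 for 24 of the 49 in Sce2965, and in Cy5 for 17 and in Cy3 for 32 in Sce2950. In Sce2950, 4 of those below were over 2 times as large in Cy5 and 14 in Cy3. The dye coefficient passed an adjusted p of 0.05 in limma for 0 of the 48 members and 0 of the 49, where 1 of all features passed (0.0153%). Without adjustment, limma gave a dye p under 0.05 for 1 of the 48 and 2 of the 49, and for 13.2% of all features. The feature named at spots 3501 and 3502 was 1 of these 2. The median size of the dye coefficient was 0.169 above the mix and 0.111 below it, and 0.203 over all features. The rule limits the dye coefficients of members too, since it kept features with the same sign in both orientations. The coefficient was also shared by early and later slides. On the early slides, ratios over all features correlated between the orientations at -0.048 in Sce2965 and -0.030 in Sce2950. A dye effect confined to the later slides would thus be averaged over both, and few calls do not show its absence.

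On the later slides the members above the mix had a median of 0.246 in Sce2965, against 0.177 on the early ones, and 33 of the 48 were larger on the later slides. In Sce2950 the median was 0.173 on the later slides, against 0.198 on the early ones, with 26 of the 48 larger on the later slides. Below the mix, the later and early medians were -0.216 and -0.202 in Sce2965 and -0.194 and -0.216 in Sce2950. The median departure was thus larger on the later slides in Sce2965 and smaller in Sce2950, in both directions, and this was not tested.

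Beyond the signs that chose them, most members were bright. Averaged over both channels and all arrays, 44 of the 48 features above the mix (91.7%) and 44 of the 49 below it (89.8%) were brighter than the median feature. The brightest 1632 features held 34 of the 48 and 32 of the 49, so that 2.08% and 1.96% of them were members. The dimmest 1632 held 1 and 2 members, or 0.0613% and 0.123% of them. The median of the mean log2 intensity was 9.33 above the mix and 9.03 below it, and 7.86 over all features. Brightness depends on the printed spot as well as on the transcript, so these are not transcript levels.

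This was not particular to features that departed alike. Of the 86 features with opposite signs in the hybrids, 87.2% were brighter than the median, at a median log2 intensity of 9.72. Among features with one sign on all 4 arrays of a single hybrid, 66.3% were brighter for Sce2965 and 63.6% for Sce2950, and among those with neither 45.0%. Duplicate spots of the members differed by a median of 0.0865 above the mix and 0.0754 below it, and by 0.0746 for opposite signs, against 0.113 over all features. The median size of departure was 0.208 in Sce2965 and 0.201 in Sce2950 for the 97 members, and 0.221 and 0.218 for the 86 features of opposite sign.

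**Figure D5:**
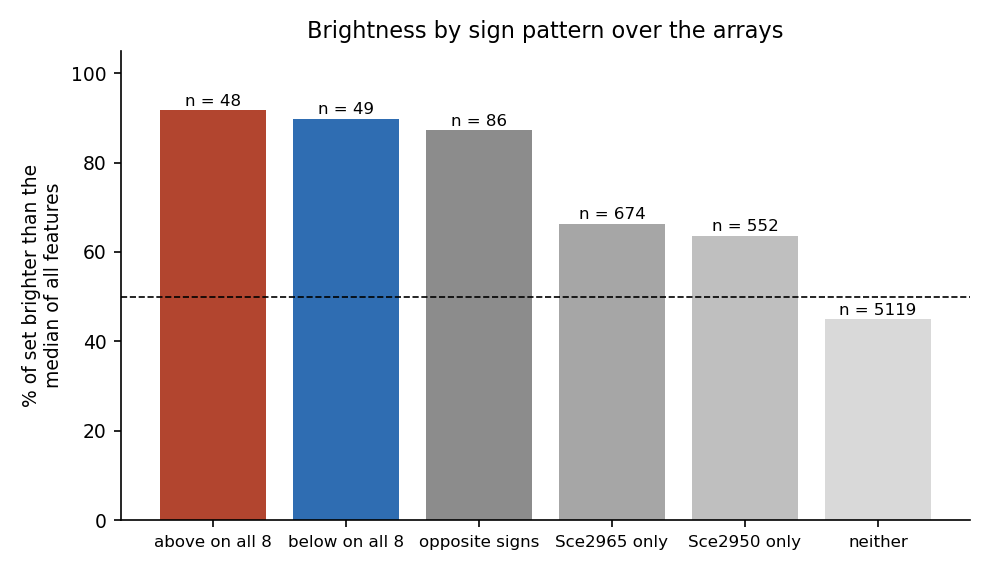
Share of features brighter than the median of all features (vertical axis, percent) by sign pattern over the 8 arrays, with the number of features above each bar; the dashed line is at the share over all features. The members above (91.7%) and below (89.8%) the mix and the features of opposite sign (87.2%) are all mostly bright, while features with neither pattern stand at 45.0%.

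On the slide, the members above the mix lay in 32 of the 48 print blocks and those below it in 34, with at most 3 and 4 in one block. The features printed next to members above the mix had a median departure of 0.02, with 55 of 89 above 0 (61.8%), where 50.0% of all features were. Those next to members below it had a median of -0.01, with 42 of 96 above 0 (43.8%). There was 1 pair of neighbouring members above the mix, which included spots 10991 and 10992, and 0 such pairs below it, and 1 member above the mix was printed next to a member below it. No member had a spot marked to be ignored by the scanner software. Saturation, taken as an intensity of at least 65000, near the top of the scanner's range, where a ratio is compressed, was confined among the members to the 1 described above. On the later slides every feature exceeded its local background by 2 SDs in both channels, so this measure told no members apart.

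Requiring the sign of both spots separately kept 9 of the 48 members above the mix and 19 of the 49 below it, although 41 and 41 had it in at least 14 of their 16 spot values. Ratios recomputed from the scanner files rest on the same arrays and are no independent support. The deposited ratios that chose the members were already close to ratios by background subtraction and print-tip loess, with correlations of 0.962 to 0.997. High retention under print-tip loess was thus largely set beforehand. With print-tip loess after normexp correction, 42 of the 48 and 44 of the 49 kept their sign on all 8 arrays. With global loess, which fits 1 curve per array, 12 of the 48 and 17 of the 49 did. Under that setting 46 of the 48 and 46 of the 49 still had a mean of their sign in both hybrids. Which features met the rule on all 8 arrays thus differed between print-tip and global loess, while the direction of the hybrid means mostly did not.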

How the data were processed

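The authors deposited a table of log2 ratios per spot and scanner files of spot intensity. Per the file headers, intensities were neither background subtracted nor crosstalk corrected, and channel 1 held the mix and channel 2 the hybrid per the labels. Software and settings behind the deposited table's normalization: not given in the sources used here. Its columns correlated at 0.962 to 0.997 with log2 ratios of hybrid over mix recomputed by background subtraction and print-tip loess, with slopes of 0.922 to 0.991. Scale and direction were read from this comparison. The table was centred near 0: its medians for replicates 1 to 4 were 0.000977, -0.00145, -0.00322 and 0.00333 in Sce2965, and 0.00464, -0.00616, -0.00276 and 0.00835 in Sce2950.

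Spots with successive numbers, odd then even, are duplicates of 1 feature and were averaged, giving 6528 features from 13056 spots. The members and the comparisons were chosen with earlier results of these data known. For the tests, intensities were corrected by normexp with offset 50 and normalized by global loess within arrays, and spots marked as ignored were dropped. All 8 arrays entered one model in limma 3.58.1 (R 4.3.3), which had a coefficient for each hybrid and a shared dye coefficient. A feature needed values on 3 or more arrays per hybrid. Tests were two-sided, with Benjamini-Hochberg adjustment over 6526 features. The fit had 5 residual and 5.5 prior degrees of freedom and was tested on simulated data. The simulation drew independent noise for each array, without the correlations between later arrays given above. It therefore does not show how the fit handles them.

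Named features were, by rule, the 2 largest mean departures per direction. Planned gene lists and mating-type markers were not used, for want of gene names. The number of arrays limits the precision.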

Additional observations from a re-analysis of the deposited data

How the results depend on the processing

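The counts of features above and below the mix on all 8 arrays were 48 and 49. They were 29 and 36 with normexp and global loess, 51 and 52 with normexp and print-tip loess, 48 and 53 with plain subtraction and print-tip loess, and 47 and 51 with columns centred on their medians. Requiring both spots to have the sign gave 9 and 19, and a size of at least 0.1 on every array gave 6 and 11. The rule over 7 arrays gave 62 to 85 above and 57 to 87 below, more by construction; more than 1.5 times the count came above without replicate 1, 2 or 4 of Sce2965 or replicate 3 or 4 of Sce2950, and below without replicate 2 of Sce2965 or replicate 1, 3 or 4 of Sce2950. Leaving out features with a saturated spot, chosen after seeing the data, gave 47 and 49. The median of the members below the mix in Sce2965, -0.209, was -0.254 with normexp and global loess, -0.253 with print-tip loess, and -0.257 to -0.183 without each array in turn. The other medians moved by less than the spread between arrays.

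For the difference between hybrids, 26 features passed in limma. Median centring left 15 and a normexp offset of 0 left 11, and the count was 17 in the authors' value table, 125 on the later slides alone, 79 with array weights, and 10 to 25 without each array in turn, falling by more than 1.5 times without replicate 3 or 4 of Sce2965 or any one array of Sce2950. Over the settings the difference lay between -0.70 and -0.37 at spots 10991 and 10992, and between -0.57 and 0.11 at spots 4037 and 4038, where its sign was not fixed and single arrays left out gave -0.50 (Sce2965 replicate 3) to -0.02 (Sce2965 replicate 1). It lay between -0.55 and -0.03 at spots 3705 and 3706, where -0.25 became -0.03 when replicate 3 of Sce2965 was left out, -0.37 for replicate 1 of Sce2965, -0.08 for replicate 3 of Sce2950 and -0.39 for replicate 2 of Sce2950, and between -0.51 and -0.17 at spots 3501 and 3502. With a replicate block 64 passed. The deviations of same-numbered arrays correlated at -0.111, 0.0548, 0.663 and 0.655 for replicates 1 to 4. Replicates 3 and 4 had the same dye orientation and slide series in both hybrids, while replicates 1 and 2 differed in both. These correlations therefore cannot tell whether the numbers pair the arrays. Members passed in 3 of 22 other settings. These were 1 above the mix and 1 below on the later slides alone, 1 above with the replicate block and 1 above with array weights. All 3 settings called the same member above the mix, which was not among the named features. The cause of these changes was not tested.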
